A study of Mus musculus with 6 samples.

Results

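Thymic endothelial cells (ECs) that carried both Ly6C and P-selectin (Ly6C+Selp+) were compared with ECs that carried Ly6C alone (Ly6C+Selp-), to find which genes differed at the step at which P-selectin appears. The comparison used 4 of the 6 libraries, 2 of each subset, chosen by the surface markers in their labels. The other 2 libraries came from Ly6C-Selp+ ECs, the subset that has P-selectin and lacks Ly6C. They entered the same model, so that the 3 subsets shared an estimate of the spread, and they give the next step for reference. All cells came from the thymus of wild-type female C57BL/6 mice aged 4 to 6 weeks, with no transgene or treatment named in the labels. The thymus was digested with enzymes, and living CD31+CD45-EpCAM- cells were sorted by Ly6C and P-selectin to a purity of at least 90%. How many mice were pooled, and whether replicates 1 and 2 came from separate animals or sorts, is not given in the sources used here, so p-values measure only the spread between these libraries, which may be technical. The libraries are bulk RNA, in which a smaller number of cells of a type and less RNA per cell cannot be told apart.

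Blood vessels change along their length, and leukocytes leave the blood mainly through venules that follow the capillaries. ECs of such venules hold P-selectin in storage granules together with von Willebrand factor, show E-selectin, and carry the atypical chemokine receptor ACKR1. Capillary ECs instead carry the machinery for taking up fatty acids, and arterial ECs depend on Notch signalling. In the adult thymus, progenitor cells enter from the blood through vessels near the corticomedullary junction, and P-selectin on the ECs is one of the molecules that they use.

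Expression was measured as FPKM, the number of sequenced fragments of a gene scaled by transcript length and by the mapped fragments of the library, and was compared as log2(FPKM + 1). A difference on this scale understates the change of genes near 0. A gene was tested if its FPKM was at least 1 in at least 2 of the 6 libraries, which left 11717 of 24457 entries on chromosomes, and the test was limma's moderated test with Benjamini-Hochberg adjustment over all of them, at a threshold of 0.05. The number of fragments per gene was read back from the deposited confidence intervals and covers counting error only. It summed to between 1452448 and 2423128 fragments per library, with 3 fragments at a median FPKM of 0.404 to 0.703 in the 4 libraries compared. The 12 endothelial markers summed to 3329 and 2827 FPKM in the Ly6C+Selp- libraries and to 2570 and 2470 FPKM in the Ly6C+Selp+ libraries, and none was listed at 0 in all 6 libraries. Markers of other cells were also present, and those of myeloid cells, thymocytes and epithelium summed to more in replicate 1 than in replicate 2 of each subset. The 12 myeloid markers summed to 522 and 90.1 FPKM in Ly6C+Selp- replicates 1 and 2, and to 215 and 73.0 FPKM in Ly6C+Selp+ replicates 1 and 2. The 14 thymocyte markers in the files gave 152, 45.7, 93.7 and 60.8 FPKM in the same order, and the 11 epithelial markers gave 149, 38.0, 115 and 63.6 FPKM. The part of these cells in the differences below was not tested.

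Between the Ly6C+ subsets, 38 genes passed the threshold with higher expression in Ly6C+Selp+ ECs, 0.324% of the tested genes, and 8 with lower expression, 0.0683% of them. The 5 largest rises on the log2(FPKM + 1) scale were those of Ackr1, Selp, Fgf23, Gm16548 and Sele, and the falls included Igfbp3, Rbp7, Ramp3 and Mcf2l. All 46 genes had both libraries of 1 subset beyond both of the other, by at least 1 on the log2 scale between the nearest libraries. Without any model, both Ly6C+Selp+ libraries lay above both Ly6C+Selp- libraries for 1523 genes (13% of those tested) and below them for 2418 genes (20.6%). These counts are of FPKM without rescaling, on which 6639 of all tested genes had a negative difference and 5074 a positive one. A gap of at least 1 between the nearest libraries was found for 93 higher genes (0.794%) and 102 lower genes (0.871%), so 55 higher and 94 lower genes had such a gap and did not pass the test. With 2 libraries against 2, an exact permutation test of a single gene cannot give a p below 0.33. The split of the called genes depended on scaling and on the model. The deposited FPKM were compared without rescaling, with 82.6% of the calls higher. With the replicate number as a block, all 38 rises and 8 falls were also called, and a smaller share of the calls was higher. That fit is described at the end, and no label ties a replicate number to a shared sort or day. Median-of-ratios scaling gave 72 higher and 29 lower genes (71.3% higher) and quantile normalization gave 73 and 30 (70.9% higher), each with 37 of the 38 rises and all 8 falls among them, while the median difference over all tested genes moved only from -0.06 to -0.01 and 0.00.

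**Figure D1:**
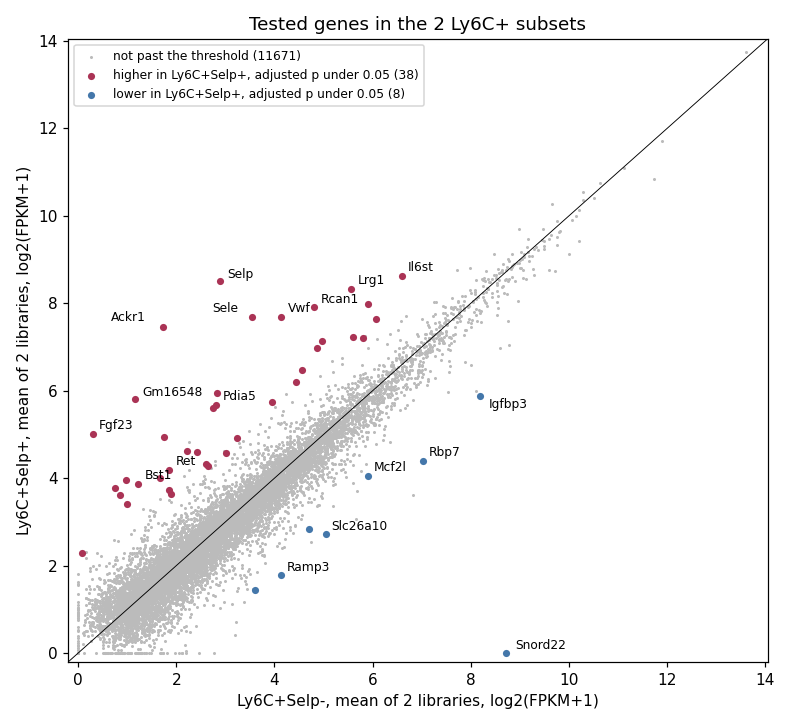
Mean log2(FPKM + 1) of the 2 Ly6C+Selp- libraries (x axis) and of the 2 Ly6C+Selp+ libraries (y axis) for the 11717 tested genes, with the diagonal as a line. The 38 genes past the threshold and higher in Ly6C+Selp+ ECs lie above the diagonal and the 8 lower ones below it, with Selp and Ackr1 farthest above and Snord22, read from 1 and 2 fragments, on the x axis.

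The sort was visible in the RNA. Selp, which encodes P-selectin, had 7.87 and 5.20 FPKM in the Ly6C+Selp- libraries, on an estimated 75 and 62 fragments, and 313 and 416 FPKM in the Ly6C+Selp+ libraries, on 1179 and 1590 fragments. Every Ly6C+Selp+ library was far above every Ly6C+Selp- library, a 55.8-fold ratio of the means (log2 difference 5.61, standard error 0.27, adjusted p = 3e-05), and this difference follows from how the cells were chosen. Ly6c1, which encodes the Ly6C that both subsets were sorted to carry, had 1010 and 692 FPKM in Ly6C+Selp- ECs and 522 and 351 FPKM in Ly6C+Selp+ ECs. Its groups did not overlap, but the log2 difference of -0.96 did not pass (95% interval -1.71 to -0.22, adjusted p = 0.45). The near-identical Ly6c2, whose coding sequence matches that of Ly6c1 at 97.7% of aligned bases, was between 0.452 and 4.80 FPKM in the 4 libraries, and reads of the pair may have been split between them. Pecam1, which encodes CD31, was at 669 and 496 FPKM and at 735 and 674 FPKM (log2 difference 0.29, adjusted p = 0.93). Epcam was at most 2.40 FPKM, and Ptprc, which encodes CD45, at most 10.6 FPKM, in any of the 4 libraries.

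Sele rose beside Selp. It encodes E-selectin, which like P-selectin slows leukocytes rolling along the vessel wall, and lies on the same strand of chromosome 1 of mm9, at chr1:165978365-165987808 against chr1:166045395-166080157 for Selp. Sele had 12.7 and 8.85 FPKM in the Ly6C+Selp- libraries and 207 and 205 FPKM in the Ly6C+Selp+ libraries. The Ly6C+Selp+ libraries were nearly equal and well clear of the others, and the means differed 19.1-fold (log2 difference 4.16, standard error 0.24, adjusted p = 7.2e-05). Of the entries within 250000 bases of Selp, Kifap3, Scyl3, Ccdc181, Blzf1 and Nme7 had log2 differences between -0.25 and 0.23, and none of them passed. Gm16548 did, a long noncoding RNA on the opposite strand whose locus shares 1451 bases with Selp and whose exons share 438 bases with its exons. It had 1.23 FPKM in both Ly6C+Selp- libraries and 48.6 and 62.5 FPKM in the Ly6C+Selp+ libraries (log2 difference 4.65, adjusted p = 5.7e-05). The library kit, as named in the labels, was not the version that keeps strand, so reads of Selp and Gm16548 cannot be told apart where they overlap.

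Ackr1 had the largest rise of all tested genes on the log2(FPKM + 1) scale (with a pseudocount of 0.1 it was 6.17, below Fgf23 at 6.58). It encodes the atypical chemokine receptor that binds many inflammatory chemokines and moves them across venular ECs. Its FPKM was 2.00 and 2.67 in the Ly6C+Selp- libraries, on 6 and 10 fragments, and 159 and 190.5 in the Ly6C+Selp+ libraries, on 353 and 664 fragments. The groups were far apart, with a 74.8-fold ratio of the means (log2 difference 5.72, standard error 0.24, adjusted p = 1.1e-05), and the difference was 5.74 within replicate 1 and 5.70 within replicate 2. Cadm3, a cell adhesion molecule whose gene ends 751 bases before the start of Ackr1 on the same strand, also rose, from 3.62 and 1.42 FPKM to 25.1 and 34.9 FPKM (log2 difference 3.20, adjusted p = 0.012). Whether reads were assigned correctly between the neighbours was not tested.

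The 250 bases before the start sites of these 3 genes are shown because the genes had the largest rises among genes of leukocyte capture. They are RefSeq promoters of assembly GRCm38.p6, each read on the strand of its gene, and each matched chromosome 1 of mm9 exactly once, directly before the first base of the locus in the files. The GRCm38.p6 positions are chr1:164115014-164115263 for Selp, chr1:164047984-164048233 for Sele and chr1:173333504-173333753 for Ackr1, the last on the minus strand. Capitals mark letters that match the kB consensus, the RBPJ core TGGGAA, the GATA core AGATAA or the E-box CANNTG on either strand, and the RBPJ core can overlap the kB consensus.
Selp: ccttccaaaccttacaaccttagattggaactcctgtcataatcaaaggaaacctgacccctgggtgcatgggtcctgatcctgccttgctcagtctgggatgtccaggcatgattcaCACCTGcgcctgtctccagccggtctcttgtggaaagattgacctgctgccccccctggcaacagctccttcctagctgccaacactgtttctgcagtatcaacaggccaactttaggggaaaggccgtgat
Sele: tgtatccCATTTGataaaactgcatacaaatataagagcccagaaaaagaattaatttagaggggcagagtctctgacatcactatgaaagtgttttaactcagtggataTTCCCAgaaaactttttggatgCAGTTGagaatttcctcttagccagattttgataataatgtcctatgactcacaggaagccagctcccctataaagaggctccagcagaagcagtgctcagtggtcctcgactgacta
Ackr1: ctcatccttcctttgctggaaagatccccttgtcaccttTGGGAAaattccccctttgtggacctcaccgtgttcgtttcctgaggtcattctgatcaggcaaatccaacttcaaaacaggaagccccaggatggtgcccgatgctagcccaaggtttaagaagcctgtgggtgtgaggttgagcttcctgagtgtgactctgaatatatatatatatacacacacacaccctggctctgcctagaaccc

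The RBPJ core was found before Sele and Ackr1 and an E-box before Selp and Sele. No exact match of the kB consensus or of the GATA core was found before any of the 3. The kB consensus was searched as GGGRNNYYCC, with R for A or G and Y for C or T. Sites that differ from it were not searched for, so a kB site before these genes is not excluded. Of the 28 rises with a promoter in the table, 2 held the kB consensus, 7 the RBPJ core, 1 the GATA core and 18 an E-box in at least 1 of their promoters. Among the 8803 tested genes with a promoter, the shares were 10.9%, 23.9%, 7.16% and 61.3%, and among all 32851 promoters they were 7.25%, 21.6%, 9.99% and 66.2%. These are matches of letters, and no binding was measured.

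Some other genes of leukocyte capture and entry rose, but the list as a whole did not. Of its 23 tested genes for capture and adhesion, 3 passed with higher expression, Sele, Bst1 and Enpp2, and none with lower expression. Over all tested genes, 0.324% passed as higher. Of the 23, 10 had a positive and 13 a negative difference. The median log2 difference was -0.05 against -0.06 over all tested genes. Selp was counted with the sort markers and Ackr1 with the chemokines. Bst1, a surface enzyme that takes part in leukocyte transmigration, went from 1.04 and 1.67 FPKM to 12.4 and 15 FPKM (log2 difference 2.65, standard error 0.28, adjusted p = 0.0059). Enpp2 encodes autotaxin, which makes lysophosphatidic acid at the vessel wall, and went from 81.5 and 42.8 FPKM to 278 and 229 FPKM (log2 difference 2.08, standard error 0.32, adjusted p = 0.043). Neither gene's groups overlapped. Vcam1, a ligand of leukocyte integrins, had 55.7 and 22.2 FPKM and then 109.8 and 94.8 FPKM, apart but not past the threshold (log2 difference 1.51, adjusted p = 0.27). Icam1 was at 138 and 142 FPKM and at 139 and 126 FPKM, with a log2 difference of -0.08 (95% interval -0.57 to 0.40). Cd34 differed by -0.01, and Podxl, a sialomucin, had 266 and 208 FPKM against 108 and 91.9 FPKM (log2 difference -1.23, adjusted p = 0.095). Podxl passed under median-of-ratios scaling (adjusted p = 0.036) and quantile normalization (adjusted p = 0.021). Of the 17 tested chemokines and their atypical receptors, Ackr1 alone passed, and Cxcl10 (331 and 192 FPKM, then 519 and 378 FPKM) and Cxcl9 (48.9 and 22.3 FPKM, then 89.3 and 52.2 FPKM) had non-overlapping groups without passing. Cxcl12, which attracts progenitor cells, had 521 and 360 FPKM in Ly6C+Selp- ECs and 245 and 152 FPKM in Ly6C+Selp+ ECs (log2 difference -1.17, adjusted p = 0.24). Of the 12 tested enzymes that build selectin ligands, none passed.

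Venous markers had the highest median of the lists. Of 14 tested venous markers, Ackr1, Sele, Vwf and Lrg1 passed, 12 had a positive difference, and the median was 1.06. Of all 11717 tested genes, 5074 had a positive difference and 0.324% passed as higher. The venous list was chosen with earlier results of these libraries known, so its median is not independent evidence. Vwf encodes von Willebrand factor, which tethers platelets and shares storage granules with P-selectin. It had 14.9 and 18.5 FPKM in Ly6C+Selp- ECs and 163 and 259 FPKM in Ly6C+Selp+ ECs, the 2 Ly6C+Selp+ libraries differing from each other but both far above the rest (log2 difference 3.55, standard error 0.32, adjusted p = 0.0019). F8 encodes coagulation factor VIII, which von Willebrand factor carries in plasma, and had 1.26 and 0.755 FPKM and then 11.5 and 7.95 FPKM (log2 difference 2.41, adjusted p = 0.022). Vwf and F8 were the genes that passed among 15 tested genes of haemostasis. Thbd, which encodes the anticoagulant thrombomodulin, had 153 and 125 FPKM against 81.6 and 66.2 FPKM and did not pass (log2 difference -0.90, adjusted p = 0.24). Platelets also carry RNA of Vwf and Selp, and of 12 platelet and megakaryocyte markers only 3 had enough expression to be tested and none passed. The 12 summed to 10.7 and 7.96 FPKM in Ly6C+Selp- ECs and to 14.2 and 17.5 FPKM in Ly6C+Selp+ ECs, and Pf4, an abundant platelet transcript, was listed at 0 and 0 and at 1.12 and 3.52 FPKM. The part of platelets in the rise of Vwf was not tested. Lrg1, a secreted glycoprotein that acts on TGF-beta signalling in vessels, rose from 52.6 and 40.8 FPKM to 281 and 363 FPKM (log2 difference 2.76, standard error 0.26, adjusted p = 0.0025).

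Several of the steepest rises were in genes that are not among the usual venous markers. Fgf23 encodes a hormone best known from bone, where it lowers blood phosphate. It had 0.255 and 0.204 FPKM in the Ly6C+Selp- libraries, about 2 fragments each, and 26.1 and 37.4 FPKM in the Ly6C+Selp+ libraries, on 155 and 342 fragments. The gene thus went from the limit of detection to a clear level in both replicates, and its log2 difference of 4.71 (adjusted p = 7.2e-05) was 6.58 with a pseudocount of 0.1. Rcan1, an inhibitor of the phosphatase calcineurin, had 28.2 and 26.0 FPKM and then 246 and 232 FPKM. The replicates of each subset lay close together, and the means differed 8.81-fold (log2 difference 3.09, standard error 0.22, adjusted p = 0.00032). Chp2, a calcium-binding relative of the regulatory subunit of calcineurin, rose from 4.28 and 4.48 FPKM to 19.3 and 28.4 FPKM (log2 difference 2.18, adjusted p = 0.020). Pdia5, a disulphide isomerase of the endoplasmic reticulum, had 5.75 and 6.35 FPKM and then 51.5 and 49.1 FPKM (log2 difference 2.86, standard error 0.23, adjusted p = 0.00098). Lbp, which binds bacterial lipopolysaccharide, was below 1 FPKM in both Ly6C+Selp- libraries and at 11.6 and 14.0 FPKM in the Ly6C+Selp+ libraries (log2 difference 3.03, adjusted p = 0.0025). Lbp was read from 6 and 5 fragments in Ly6C+Selp- ECs and from 61 and 121 in Ly6C+Selp+ ECs.

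**Figure D2:**
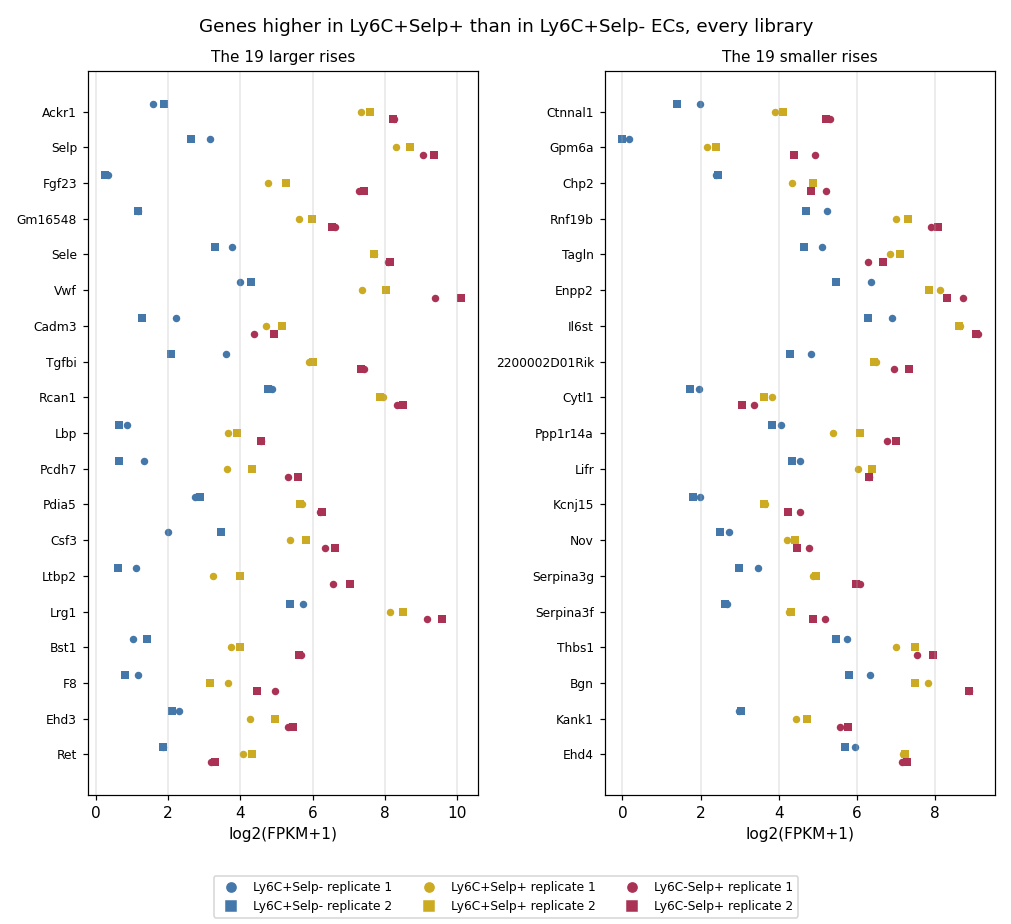
Log2(FPKM + 1) of the 38 genes past the threshold and higher in Ly6C+Selp+ ECs, in every library of the 3 subsets, with colours for subsets and symbols for replicates. For each gene both Ly6C+Selp+ libraries lie to the right of both Ly6C+Selp- libraries, and for Cadm3, Ret, Tagln and Cytl1 the mean of the Ly6C-Selp+ libraries lies to the left of that of Ly6C+Selp+ ECs.

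The receptor subunits Il6st and Lifr rose together. Il6st encodes gp130, the signalling subunit shared by receptors of the interleukin-6 family, and Lifr pairs with it in the receptor of leukaemia inhibitory factor. Il6st had 118 and 77.5 FPKM in Ly6C+Selp- ECs and 399 and 388 FPKM in Ly6C+Selp+ ECs (log2 difference 2.03, standard error 0.25, adjusted p = 0.014). Lifr had 22.2 and 19.1 FPKM and then 64.3 and 82.7 FPKM (log2 difference 1.78, standard error 0.24, adjusted p = 0.021). They were the genes that passed among 23 tested genes for cytokine receptors and their ligands, a list with a median of 0.12. Among all tested genes, 0.324% passed as higher. Osmr, which also pairs with gp130, had 40.0 and 28.7 FPKM and then 43.8 and 39.9 FPKM (log2 difference 0.30, 95% interval -0.32 to 0.91). Downstream of gp130, Socs3 had a log2 difference of 0.31 (95% interval -0.25 to 0.88) and Stat3 one of -0.07 (95% interval -0.59 to 0.45), and neither passed. Csf2rb2 and Csf2rb, which encode beta subunits of receptors for colony-stimulating factors and are 95.2% identical in their aligned coding bases, had log2 differences of 1.40 (adjusted p = 0.057) and 0.76 (adjusted p = 0.42), and reads of the pair may have been split. Csf2rb2 passed under median-of-ratios scaling (adjusted p = 0.022) and quantile normalization (adjusted p = 0.018). Csf3, which encodes the granulocyte colony-stimulating factor, had 3.02 and 10.1 FPKM and then 40.8 and 55.0 FPKM (log2 difference 2.86, standard error 0.43, adjusted p = 0.039). Its call was lost under median-of-ratios scaling (adjusted p = 0.062) and quantile normalization (adjusted p = 0.059).

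Some of the rises were in genes of secreted matrix proteins. Tgfbi, an adhesive matrix protein induced by TGF-beta, had 11.1 and 3.19 FPKM in Ly6C+Selp- ECs and 58.6 and 63.0 FPKM in Ly6C+Selp+ ECs (log2 difference 3.12, standard error 0.43, adjusted p = 0.021). Ltbp2, a latent TGF-beta binding protein of microfibrils, rose from 1.14 and 0.518 FPKM to 8.38 and 14.9 FPKM (log2 difference 2.76, adjusted p = 0.014). Both were among 15 tested genes of the TGF-beta list, whose median was 0.32. Tgfb1 (log2 difference -0.65, adjusted p = 0.55) and its receptor Tgfbr2 (-0.64, adjusted p = 0.57) did not pass. The share of all tested genes that passed as higher was 0.324%. Bgn, the small proteoglycan biglycan, went from 79.7 and 54.9 FPKM to 224 and 178 FPKM (log2 difference 1.58, adjusted p = 0.046), and Thbs1, which encodes thrombospondin-1, from 52.4 and 43.4 FPKM to 126 and 177 FPKM (log2 difference 1.63, adjusted p = 0.047). Nov, a matricellular protein of the CCN family, also rose (log2 difference 1.71, adjusted p = 0.045). Of 20 tested basement membrane genes, 14 were lower and none passed, with a median of -0.30. Of all 11717 tested genes, 6639 were lower. Col4a1 and Col4a2, the main chains of collagen IV, had 920 and 1151 FPKM and 716 and 840 FPKM in Ly6C+Selp- ECs, against 565 and 553 FPKM and 437 and 433 FPKM in Ly6C+Selp+ ECs (log2 differences -0.88 and -0.83, adjusted p = 0.28 and 0.32).

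The remaining rises were in genes of varied functions. Ehd3 and Ehd4, ATPases of endocytic recycling, had log2 differences of 2.40 (adjusted p = 0.014) and 1.39 (adjusted p = 0.046). Pcdh7, a protocadherin, had one of 2.98 (adjusted p = 0.013), Ctnnal1, which encodes alpha-catulin, one of 2.33 (adjusted p = 0.014), and Kank1, a regulator of actin at adhesions, one of 1.57 (adjusted p = 0.046). Ret, the receptor tyrosine kinase for ligands of the GDNF family, had 2.61 and 2.65 FPKM in Ly6C+Selp- ECs and 15.7 and 19 FPKM in Ly6C+Selp+ ECs (log2 difference 2.33, standard error 0.28, adjusted p = 0.013). Its Ly6C+Selp- libraries were all but equal. Rnf19b, a ubiquitin ligase, the membrane glycoprotein Gpm6a, the secreted Cytl1, the potassium channel Kcnj15 and 2200002D01Rik rose by between 1.75 and 2.21 on the same scale. Gpm6a was below the limit of detection in Ly6C+Selp- ECs, at 0.115 and 0 FPKM, and had 3.50 and 4.28 FPKM in Ly6C+Selp+ ECs. Serpina3f and Serpina3g, serine protease inhibitors, rose by 1.63 and 1.69, but the Serpina3f locus lies inside the one listed for Serpina3g and 87.4% of their aligned coding bases are identical, so they may not be 2 separate results.

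The contractile gene Tagln, which encodes the actin-binding protein SM22, had 33.6 and 23.8 FPKM in Ly6C+Selp- ECs and 114.5 and 137 FPKM in Ly6C+Selp+ ECs (log2 difference 2.11, standard error 0.27, adjusted p = 0.014). Ppp1r14a, an inhibitor of myosin phosphatase, rose from 15.6 and 13.3 FPKM to 41.1 and 66.2 FPKM (log2 difference 1.79, adjusted p = 0.045). Tagln is a marker of smooth muscle, and it was the only one of 14 tested pericyte and smooth muscle markers to pass. The median of the list was -0.03, and 0.324% of all tested genes passed as higher. Acta2 had 13.7 and 7.53 FPKM and then 29.5 and 37.0 FPKM (log2 difference 1.60, adjusted p = 0.18), and Myh11 17.7 and 9.40 FPKM and then 26.7 and 40.8 FPKM (log2 difference 1.29, adjusted p = 0.42). The pericyte genes Rgs5, Pdgfrb and Notch3 differed by between -0.08 and -0.01. Summed over the list, the 4 libraries had 745, 329, 693 and 578 FPKM in the order Ly6C+Selp- replicates 1 and 2 and Ly6C+Selp+ replicates 1 and 2, and the 10 fibroblast markers 323, 187, 487 and 299 FPKM. The part of such cells in the rises of Tagln, Ppp1r14a and the matrix genes was not tested.

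Of the 8 falls, 6 had clear levels in Ly6C+Selp- ECs. Igfbp3, which binds insulin-like growth factors, had 326 and 256 FPKM in Ly6C+Selp- ECs, on 2292 and 2245 fragments, and 74.5 and 44.8 FPKM in Ly6C+Selp+ ECs, on 396 and 370 fragments. It was the best covered of the falls, 4.88-fold lower by the means (log2 difference -2.30, standard error 0.29, adjusted p = 0.014). Rbp7, a retinol-binding protein of capillary ECs, had 133 and 124 FPKM against 32.1 and 12.5 FPKM (log2 difference -2.62, standard error 0.40, adjusted p = 0.039). Ramp3, which gives the calcitonin receptor-like receptor its affinity for adrenomedullin, had 20.0 and 13.5 FPKM against 2.50 and 2.38 FPKM (log2 difference -2.35, standard error 0.38, adjusted p = 0.046). Ramp3 was the gene that passed among 19 tested vasoactive mediators, while 0.0683% of all tested genes passed as lower. Mcf2l, a guanine nucleotide exchange factor, had 57.0 and 60.9 FPKM against 18.7 and 13.1 FPKM (log2 difference -1.85, adjusted p = 0.042). Slc26a10, of a family of anion transporters, had 35.8 and 28.5 FPKM against 6.28 and 4.94 FPKM (log2 difference -2.32, adjusted p = 0.039), and Ces2e, a carboxylesterase, 11.5 and 10.8 FPKM against 2.34 and 1.19 FPKM (log2 difference -2.17, adjusted p = 0.046). In each of these 6 genes both Ly6C+Selp+ libraries lay below both Ly6C+Selp- libraries.

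The other 2 falls rest on little. Snord22, a small nucleolar RNA of 126 bases inside the transcript of Snhg1, was listed at 339 and 521 FPKM in the Ly6C+Selp- libraries and at 0 in all other libraries, but the deposited intervals correspond to 1 and 2 fragments. Hba-a1, which encodes alpha-globin of red blood cells, is listed at 2 loci on chromosome 11 and is 99.8% identical to Hba-a2 in coding bases. At the locus that passed it had 26.0 and 24.4 FPKM against 7.18 and 5.28 FPKM (log2 difference -1.87, adjusted p = 0.048), and at the other 55.6 and 43.8 FPKM against 7.19 and 7.57 FPKM (log2 difference -2.59, adjusted p = 0.11). The 10 entries of erythroid markers summed to 178 and 149 FPKM in Ly6C+Selp- ECs and to 55.4 and 26.4 FPKM in Ly6C+Selp+ ECs. Of the beta-globin entries, Hbb-b1 had overlapping groups, at 0.0642 and 71.1 FPKM and then 36.3 and 12 FPKM. Hbb-bt was at 10.5 and 8.39 FPKM and then at 4.04 and 0 FPKM, and did not pass (log2 difference -2.21, adjusted p = 0.31).

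Beyond the called genes, most tested capillary and arterial genes had negative differences, and none passed. Of 22 tested genes of the capillary list, 19 had a negative difference, 11 had both Ly6C+Selp+ libraries below both others, and none passed, with a median of -0.53 against -0.06 over all tested genes. Of all 11717 tested genes, 6639 had a negative difference and 20.6% had both Ly6C+Selp+ libraries below both others. The capillary list was chosen with earlier results of these libraries known, so these values are not independent evidence. Gpihbp1, which anchors lipoprotein lipase on capillary ECs, had 490 and 392 FPKM and then 161 and 107 FPKM (log2 difference -1.73, adjusted p = 0.064). Rgcc, a regulator of the cell cycle that is abundant in capillary ECs, had 337 and 223 FPKM and then 86.3 and 45.9 FPKM (log2 difference -2.11, adjusted p = 0.052). The fatty acid binding protein Fabp4 did not follow them, at 4787 and 3013 FPKM and then 3831 and 2898 FPKM, with overlapping groups (log2 difference -0.19, 95% interval -0.89 to 0.51). Plvap, a component of endothelial diaphragms, was higher without passing (log2 difference 0.60, adjusted p = 0.61). The tight junction gene Cldn5 had 409.7 and 364 FPKM and then 154 and 100.5 FPKM (log2 difference -1.63, adjusted p = 0.067). It passed under median-of-ratios scaling (adjusted p = 0.022) and quantile normalization (adjusted p = 0.016).

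Among 15 tested arterial markers, 12 had a negative difference and none passed, with a median of -0.65. Of all 11717 tested genes, 6639 had a negative difference and 5074 a positive one. The arterial list too was chosen with earlier results of these libraries known, so its median is not independent evidence. In the Notch pathway, none of 17 tested genes passed, 10 differences were negative and 7 positive, and the median of -0.05 was close to that of all tested genes. Both Ly6C+Selp+ libraries lay below both others for 8 of the 17 and above them for 4, while over all tested genes the shares were 20.6% and 13%. The receptor Notch4 had 68.7 and 76.6 FPKM and then 29.1 and 27.3 FPKM (log2 difference -1.33, standard error 0.24, adjusted p = 0.061), and its ligand Dll4 had 49.8 and 53.6 FPKM and then 22 and 22.4 FPKM (log2 difference -1.18, adjusted p = 0.097). The replicates of these genes lay close together within each subset. The Notch target Hey1 had 24.3 and 16.8 FPKM and then 6.52 and 6.45 FPKM (log2 difference -1.51, adjusted p = 0.29), while Notch3, which pericytes use, had 54.6 and 39.4 FPKM and then 45.6 and 43.7 FPKM. Of 10 tested genes of the VEGF pathway 7 were lower and none passed, with Kdr, the main VEGF receptor of ECs, at 206 and 173 FPKM and then 103 and 84.7 FPKM (log2 difference -1.01, adjusted p = 0.16, and 0.047 under quantile normalization). Id1, a target of BMP signalling, had 305 and 216 FPKM and then 109.0 and 84.2 FPKM. Its log2 difference of -1.41 had an adjusted p of 0.070, and it passed under median-of-ratios scaling (adjusted p = 0.016) and quantile normalization (adjusted p = 0.0099). The endothelial transcription factor Sox17 (log2 difference -0.65, adjusted p = 0.60), Msx1 (-0.90, adjusted p = 0.72) and the leukocyte adhesion receptor Cd97 (-0.97, adjusted p = 0.27) were also lower in both Ly6C+Selp+ libraries than in both others. Msx1 was between 1.56 and 6.26 FPKM in the 4 libraries. Sema7a, a semaphorin, and Sema3g, an arterial one, had log2 differences of -1.57 (adjusted p = 0.064) and -1.51 (adjusted p = 0.075), and Sema7a passed under both other scalings (adjusted p = 0.015 and 0.013).

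**Figure D3:**
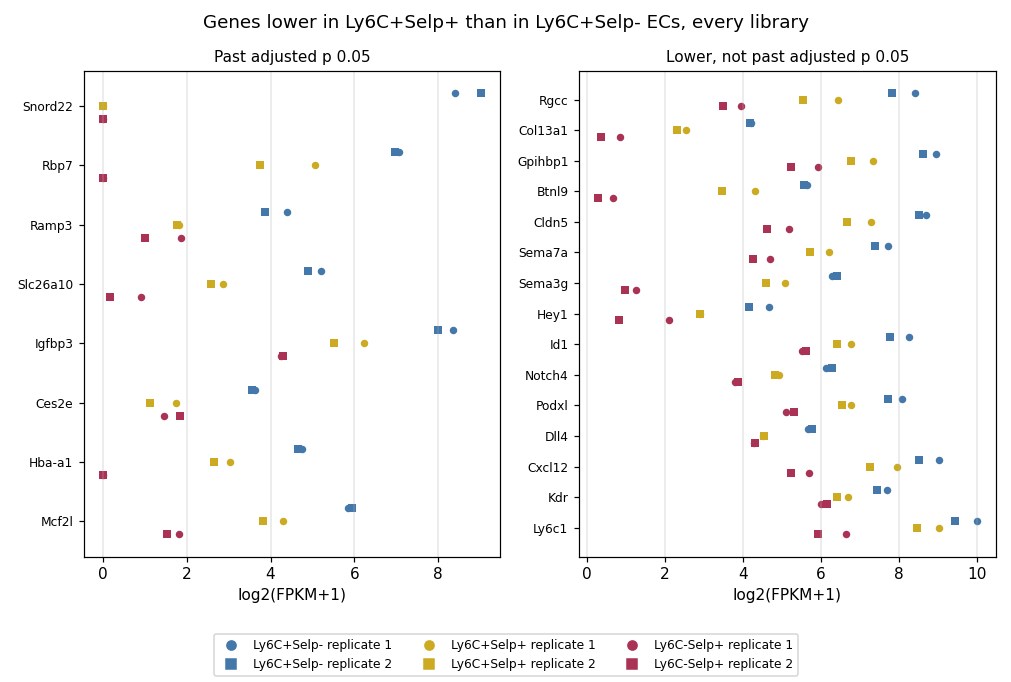
Log2(FPKM + 1) in every library for the 8 genes past the threshold and lower in Ly6C+Selp+ ECs (left) and for 15 capillary, arterial, Notch and other genes that were lower and did not pass (right), with colours for subsets and symbols for replicates. Each gene shown has both Ly6C+Selp+ libraries to the left of both Ly6C+Selp- libraries, and Hba-a1 is drawn at the locus that passed. The 15 genes on the right were picked with results of these libraries known, so their separation follows from the choice. Genes that overlapped or were higher, such as Fabp4, Notch3 and Plvap, are not drawn.

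Other programmes showed few differences or none that passed. Of 23 tested genes for LTbR, TNF receptors and NF-kB, none passed, with a median of 0.09. Nfkbia, an early target of NF-kB, had 626 and 523 FPKM and then 600.3 and 547 FPKM (log2 difference 0.00, 95% interval -0.51 to 0.52), and Tnfaip3, another, differed by 0.27 (95% interval -0.31 to 0.85). None passed among 16 tested genes of MHC class I (median -0.16), 10 of MHC class II (0.17), 19 of the interferon response (-0.13), 20 immediate early genes (-0.07), 36 endothelial transcription factors (-0.04), 14 integrins (0.04) and 27 cytosolic ribosomal proteins (0.12). The same held for 17 genes of BMP receptors and ID targets (-0.07), 12 of sphingosine-1-phosphate (-0.28), 19 semaphorins, plexins and neuropilins (-0.28) and 8 of angiopoietins and TIE receptors (0.07). Medians this close to that of all genes are sensitive to scaling: those of leukocyte capture, endothelial transcription factors, pericyte markers, enzymes of selectin ligands and the Notch pathway turned from negative to positive under median-of-ratios scaling (0.01, 0.02, 0.03, 0.03 and 0.0048), and those of BMP and immediate early genes did so under quantile normalization (0.03 and 0.01). Over all 11717 tested genes, 6639 differences were negative and 5074 positive. The 17 tested cell cycle genes had 15 negative differences and none that passed (median -0.37), and Pcna, which clamps the DNA polymerase, had 78.1 and 58.0 FPKM and then 47.7 and 49.7 FPKM. Complement genes lay the other way, with 8 of 9 positive and none past the threshold (median 0.84). The complement component C3 had 93.4 and 36.9 FPKM and then 182 and 84.8 FPKM, with overlapping groups. The 11 tested myeloid markers all had negative differences and none passed (median -0.69), and Lyz2 had 177 and 18.5 FPKM and then 55.7 and 22.4 FPKM, so that its largest difference lay between replicates. Venous, capillary and arterial medians kept their sign under both other scalings (1.11 and 1.15, -0.47 and -0.45, -0.59 and -0.57). These lists were chosen with earlier results of these libraries known, and the scalings use the same libraries.

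**Figure D4:**
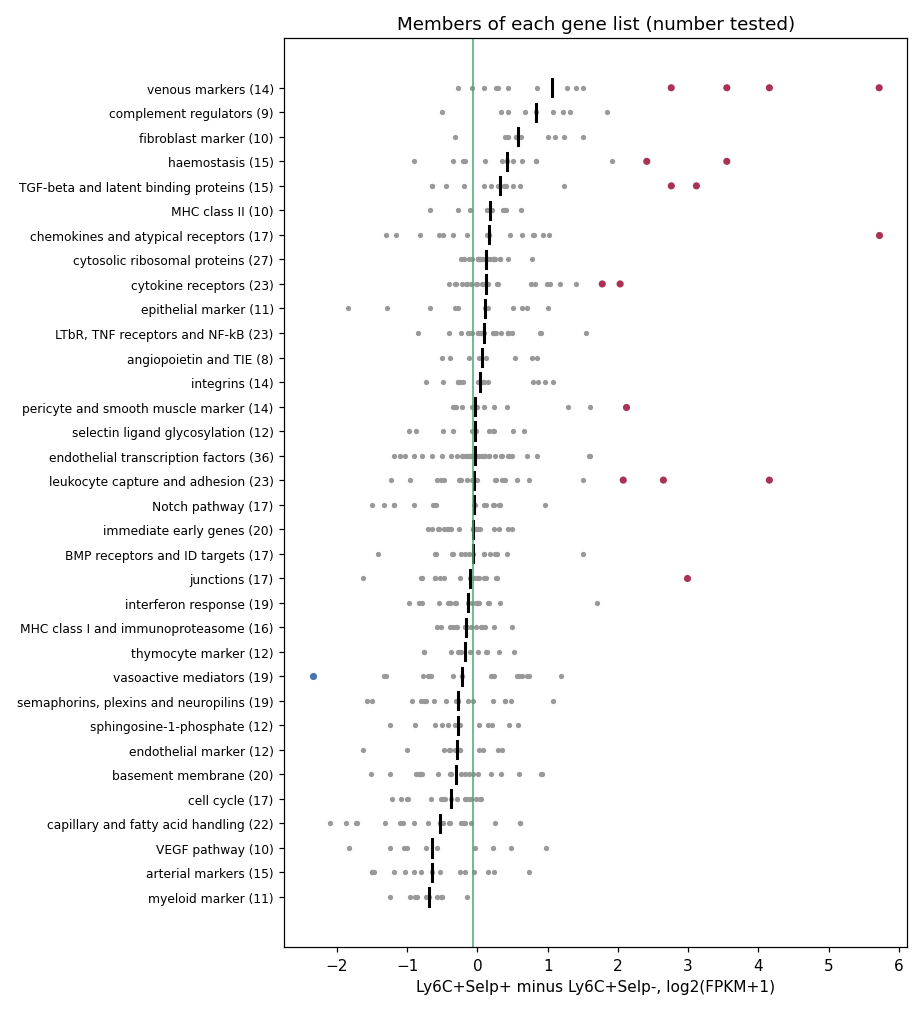
Log2(FPKM + 1) difference between Ly6C+Selp+ and Ly6C+Selp- ECs for the tested members of each gene list, with the number tested in brackets, coloured points for members past the threshold, a black bar at each list's median and a green line at the median of all tested genes (-0.06). Venous markers have the highest median (1.06) and myeloid markers the lowest (-0.69) of the lists drawn, which leave out those with fewer than 8 tested members and the sort markers.

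The loss of Ly6C is the next step, and it shares the Ly6C+Selp+ libraries with the first, so only the values of each are set side by side, and the difference between the steps was tested on its own. It passed for 5 genes, 0.0427% of those tested. Ackr1 differed by 5.72 at the first step and 0.79 at the second (difference of the steps 4.93, standard error 0.41, adjusted p = 0.0048), Selp by 5.61 and 0.70 (4.91, adjusted p = 0.011), Sele by 4.16 and 0.42 (3.74, adjusted p = 0.023) and Gm16548 by 4.65 and 0.77 (3.88, adjusted p = 0.023). P-selectin was the marker that split the cells at the first step and not at the second, and Gm16548 overlaps Selp. The fifth was Snord22. In Ly6C-Selp+ ECs, Ackr1 was at 306 and 297 FPKM and Sele at 269 and 283 FPKM. On the log2 scale both were above the Ly6C+Selp+ libraries by far less than at the first step. Of the 38 rises, 34 had a positive value at the second step as well and 3 passed there, Fgf23 (155 and 172 FPKM in Ly6C-Selp+ ECs, 2.35, adjusted p = 0.021), Ltbp2 (93.7 and 130.3 FPKM, 3.19, adjusted p = 0.016) and Gpm6a (29.5 and 20.0 FPKM, 2.38, adjusted p = 0.041). Over all tested genes the median second-step value was 0.14, and the share with a positive value was not counted. Vwf went on to 669 and 1095 FPKM (2.05, adjusted p = 0.050). Ret, Cadm3, Tagln and Cytl1 had negative values at the second step, and none of these passed. Ret, the lowest of them at -0.95, had 8.09 and 8.91 FPKM in Ly6C-Selp+ ECs, between the other subsets (adjusted p = 0.28). Of the 8 falls, Rbp7 (listed at 0 in both Ly6C-Selp+ libraries), Mcf2l (2.50 and 1.87 FPKM) and Hba-a1 at the locus above (listed at 0) fell again past the threshold. Glycam1, a secreted mucin, was listed at 0, 0, 0 and 0.635 FPKM in the 4 Ly6C+ libraries and at 33.1 and 55.0 FPKM in Ly6C-Selp+ ECs, and passed at the second step (5.09, adjusted p = 0.0026), but its difference between the steps did not pass (adjusted p = 0.13).

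**Figure D5:**
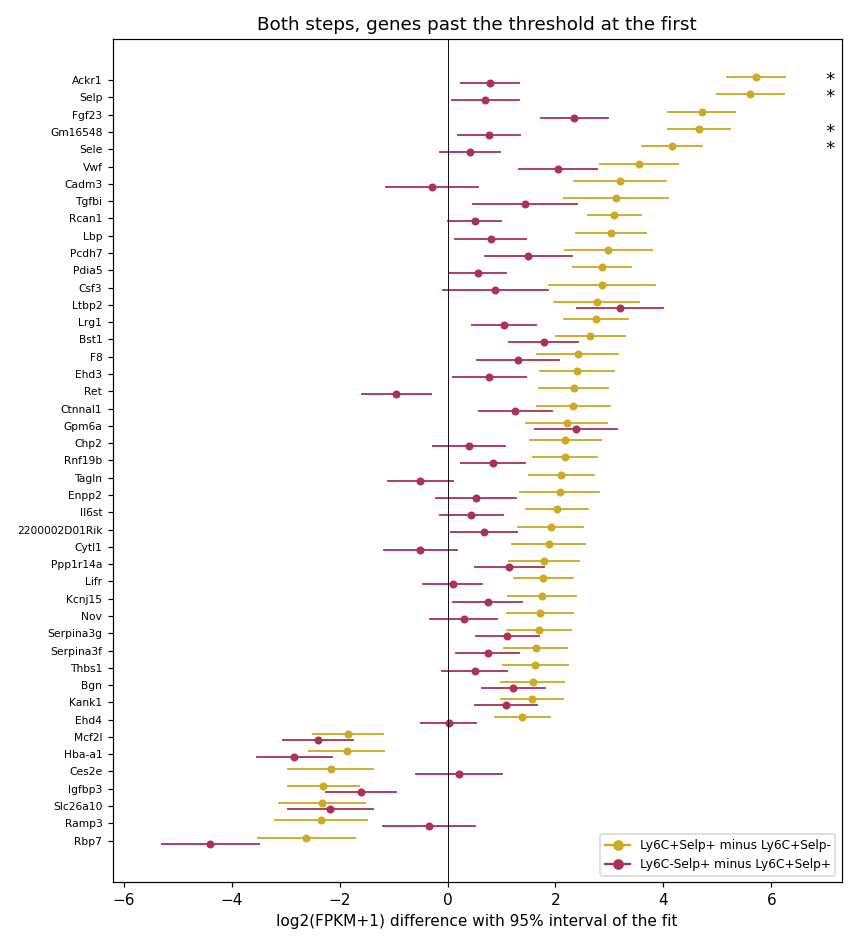
Log2(FPKM + 1) difference with its 95% interval at the first step (Ly6C+Selp+ minus Ly6C+Selp-) and the second (Ly6C-Selp+ minus Ly6C+Selp+) for the genes past the threshold at the first step, Snord22 left out. Stars mark the 4 genes shown whose difference between the steps passed, Ackr1, Selp, Gm16548 and Sele, which have values of 4.16 to 5.72 at the first step and 0.42 to 0.79 at the second.

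How firmly a gene was called varied. Ackr1, Gm16548, Rcan1 and Pdia5 passed under all 15 alternative settings, and these 4 with Selp, Sele, Vwf, Fgf23, Lrg1, Lbp and Snord22 passed in each fit that left out 1 library, 11 genes of 46. The others lost their call without at least 1 library. With only the 4 libraries compared, 24 of the 38 rises and 4 of the 8 falls kept their call. The rises that lost it there were Lifr, Serpina3g, Bgn, Cytl1, Enpp2, Gpm6a, Kank1, Kcnj15, Nov, Ppp1r14a, Serpina3f, Csf3, Ehd4 and Thbs1. The falls were Rbp7, Mcf2l, Ces2e and Hba-a1. Without the trend in limma, 14 rises and 1 fall kept their call. The number of calls was 10 higher and 2 lower without Ly6C+Selp+ replicate 2, 15 and 2 without Ly6C+Selp- replicate 2, 18 and 6 without Ly6C+Selp+ replicate 1, and 31 and 2 without Ly6C+Selp- replicate 1. It was 24 and 5 without Ly6C-Selp+ replicate 1 and 23 and 5 without Ly6C-Selp+ replicate 2. No called gene changed sign under any of the 15 settings. Snord22 rests on few fragments, and Gm16548 shares exon bases with the sort marker Selp. Leaving out a library does not test either limit.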

How the data were processed

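RNA-seq libraries were made from 3 sorted subsets of mouse thymic ECs, with 2 libraries each, and grouped by the surface markers in the labels. The authors deposited a table per library with FPKM and its confidence bounds. The submitters' processing notes name CASAVA 1.8, TopHat2 2.0.10, Cufflinks 2.1.1 and Cuffdiff with build mm9. The library kit was not the directional version, and the other settings are not given in the sources used here.

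Entries on chromosomes that reached 1 FPKM in 2 or more of the 6 libraries were analysed as log2(FPKM + 1), with a pseudocount of 1, in limma 3.58.1 (R 4.3.3) with a trend on mean expression. The model had 1 mean per subset, and Benjamini-Hochberg adjustment ran over all 11717 genes. Fragments were estimated from the deposited bounds. Loci and coding identities used the GENCODE annotation of the mm9 reference, and promoters came from RefSeq (GRCm38.p6). Tables and plots used Python 3.11.15 with numpy 2.4.6, pandas 2.3.3, Biopython 1.88 and matplotlib 3.10.9. Protein sequences were not used here.

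The genes and lists were chosen with earlier results of these data known. Of the genes past the threshold with a mean of at least 10 FPKM in the higher subset, the 15 largest rises and falls were named. Also named were the sort markers, genes that the study names for the subsets, list members that passed, the 4 members with the highest mean FPKM per list that did not, the 10 largest gaps each way between the nearest libraries, and the 5 largest differences each way between the steps. Acta2, Glycam1, Gpihbp1, Myh11, Osmr, Rgcc, Socs3, Stat3, Vcam1, Snhg1, Btnl9, the neighbours of Selp and the called genes outside this rule were chosen after their values were seen. The alternatives were 2 pseudocounts, 2 filters, 2 scalings, a replicate block, limma without the trend, the 4 libraries alone, and leaving out each library.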

Additional observations from a re-analysis of the deposited data

Results flagged for a closer look

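The tables also list sequences that lie on no chromosome and that entered no comparison. One of them, RGC-mRFP, had 18.2 and 1.83 FPKM in Ly6C+Selp- replicates 1 and 2, 23.7 and 5.31 FPKM in Ly6C+Selp+ replicates 1 and 2, and 28.3 and 3.23 FPKM in Ly6C-Selp+ replicates 1 and 2. These values drew attention as a signal in sequences outside the comparisons. In each subset replicate 1 was above replicate 2. RGC-GFP had 2.37 FPKM in Ly6C-Selp+ replicate 2, on 5 fragments, and 2.36 FPKM in Ly6C+Selp+ replicate 1, on 3 fragments. It was at most 1.76 FPKM in the other libraries. The labels name no transgene, and the source of these fragments was not tested. The 92 spike-in sequences had at most 4 fragments in any library. No group had enough libraries to look for single outlying samples.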

How the results depend on the processing

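The direction of every called gene was the same under all 15 alternatives, but the number of calls (38 higher and 8 lower) moved with most of them. It was 34 and 4 with a pseudocount of 0.1, 38 and 5 with 0.5, 6 and 4 with no filter on low values, 41 and 11 with an FPKM of 1 in 4 samples, 72 and 29 with median-of-ratios scaling, 73 and 30 with quantile normalization, 14 and 1 without the trend in limma, and 24 and 5 with only the 4 libraries compared. The cause was not tested. With 1 library left out, the calls ranged from 10 to 31 higher and from 2 to 6 lower, where the lone library of a subset was assumed to vary like the others. Genes with both libraries of a subset above both of the other numbered 2318 under median-of-ratios scaling and 2428 under quantile normalization, and gaps of at least 1 numbered 189 higher and 208 lower with a pseudocount of 0.1.

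The difference between the steps passed for 4 genes with a positive difference, which rose more at the first step, and 1 with a negative one, Snord22, which fell at the first step. These counts of positive and negative differences were 2 and 1 without a filter, 4 and 0 with an FPKM of 1 in 4 samples, 6 and 1 under quantile normalization, 0 and 1 without the trend, and 0 to 3 and 1 to 2 with 1 library left out.

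The labels give each subset replicates 1 and 2, and a paired fit with the replicate number as a block called 99 higher and 84 lower genes, all 46 calls among them, and 7 and 8 for the difference between the steps. The deviations of same-numbered libraries correlated at 0.20, 0.31 and 0.18 over genes, but with 2 replicate numbers and no label that ties a number to a shared sort or day, they were not taken as pairs. Of the 149 genes named that did not pass, 20 passed under at least 1 alternative, 19 of them under the block (among them Notch4, adjusted p = 0.013, Dll4, 0.020, Kdr, 0.038, Sema3g, 0.019, Sema7a, 0.0052, Cldn5, 0.0061, Id1, 0.014, Cxcl12, 0.014, and Ly6c1, 0.032), and 57 changed sign under at least 1. Depth limits the low genes, since entries read from 3 fragments had median FPKM values between 0.404 and 0.716.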
